A study of Rattus norvegicus with 18 samples.

Results

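The Bcl2 family is the group of proteins that decides whether the outer membrane of the mitochondrion stays closed or is opened during apoptosis. The 10 listed members were looked up by gene name, ignoring case, in the count files of all 18 libraries. 9 of them were found among the 31463 rows, and all 9 passed the filter on low counts that left 14398 genes for testing. Hrk, a BH3-only gene known from dying neurons, had no row under this name and was not analysed here. The 9 genes comprise 3 pro-survival members (Bcl2, Bcl2l1 and Mcl1) and 6 pro-death members. Bax and Bak1 are the pore-forming effectors, and Bbc3, Pmaip1, Bcl2l11 and Bid are BH3-only members.

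As background, BCL2, BCL-XL (the product of Bcl2l1) and MCL1 hold the effectors BAX and BAK in check. When BH3-only proteins such as PUMA (Bbc3), NOXA (Pmaip1), BIM (Bcl2l11) and BID occupy the pro-survival proteins or act on the effectors, BAX and BAK permeabilise the outer membrane, and cytochrome c leaves the mitochondrion to activate caspases. Much of this control acts on the proteins themselves, by cleavage, phosphorylation, relocation and degradation, none of which is visible in transcript counts. Neurons depend strongly on BCL-XL and MCL1 for survival, and several BH3-only genes are induced in stressed neurons.

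RNA was sequenced from primary neuroglial cultures of newborn Wistar rat cortex, which contain neurons and glia and had received cytosine arabinoside to limit glial growth. There were 3 libraries in each of 6 groups, and RNA was collected on day 10 in vitro, 4 h after the excitotoxicity model. Control cultures received no glutamate, and Glutamate cultures were exposed to 100 µM glutamate. Memantine cultures received 100 µM memantine, a blocker of NMDA receptors, as the positive control. The label of this group names memantine alone, and the series design and the study place it together with glutamate. In the Glutamate_vesicles, Glutamate_secret and Glutamate_BPC groups, the cultures were given, 1 day ahead of glutamate, material released by glial progenitors made from human pluripotent stem cells. Of the last 2 groups, 1 received a protein fraction and 1 the whole secretome, and since no label tells them apart, both names are kept. The study states in general that its experiments were repeated on unrelated cultures, and the labels do not say which culture gave which library. The p-values measure the spread between these libraries.

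Library totals ranged from 8409574 to 17206354 counts. Ribosomal RNA took between 3.04% and 43.0% of a library, with the highest share in Control 1. The libraries also differed by replicate number. Replicate number 1 had 13.4% to 43.0% ribosomal RNA in its 6 libraries, number 2 had 3.04% to 8.15%, and number 3 had 6.58% to 26.6%. What the number stands for is not given by the labels. The study's supplement plots the Control, Glutamate, Memantine and vesicle groups from counts corrected for a batch. Glutamate_secret and Glutamate_BPC are not listed in that plot. For another of its experiments the supplement names the day as the corrected factor. Whether the replicate number is that day or batch is not stated. All 10 neuronal, 8 astrocytic, 8 microglial and 9 oligodendrocyte lineage markers had counts, as had 11 of 12 fibroblast, mural and endothelial markers, with no row for Cldn5. The summed level of the 10 neuronal markers was 2107 to 2816 CPM (counts scaled to library size) in Control, 605 to 1142 in Glutamate, 656 to 3336 in Memantine, 590 to 906 in Glutamate_vesicles, 502 to 1063 in Glutamate_secret and 681 to 1091 in Glutamate_BPC. Within Memantine, the neuronal sums of libraries 1, 2 and 3 were 3336, 2330 and 656 CPM, the last within the Glutamate range. The astrocytic sum was 2954 to 6399 CPM in Control and 5676 to 11335 in Glutamate. It was 4358, 3713 and 10968 CPM in Memantine 1, 2 and 3. The microglial sum was 43.4 to 104 CPM in Control and 91.9 to 330 in Glutamate. In these bulk cultures, fewer cells of a type and less RNA per cell cannot be told apart. The part of cell composition and of ribosomal RNA in the members' values was not tested, except where a fit with the ribosomal RNA share is given.

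Promoter sequences from RefSeq were available for 7 of the 9 members (Bcl2, Bcl2l1, Mcl1, Bak1, Pmaip1, Bcl2l11 and Bid), covering 250 bases before and 50 after each start in the build GRCr8. The 8 motifs named here were searched on both strands of the 250 bases before the start, for the members and for all promoters. The 50 bases after the start were not searched. TGACG, the half-site of the cAMP response element, was present in 2 of the 7 members, Mcl1 and Pmaip1, and in 18.2% of all 33469 promoters. These were the only members with this match, and their 250 upstream bases are shown for that reason, 5′ to 3′. Capitals mark CGTCA, which is TGACG read on the other strand.
Mcl1, GRCr8 chr2:185907918-185908167, plus strand: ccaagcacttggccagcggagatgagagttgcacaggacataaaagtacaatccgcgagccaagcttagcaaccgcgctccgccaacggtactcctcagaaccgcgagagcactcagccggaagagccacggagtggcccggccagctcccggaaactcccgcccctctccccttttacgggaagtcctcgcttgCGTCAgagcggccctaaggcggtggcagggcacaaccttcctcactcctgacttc
Pmaip1, GRCr8 chr18:62255720-62255969, plus strand: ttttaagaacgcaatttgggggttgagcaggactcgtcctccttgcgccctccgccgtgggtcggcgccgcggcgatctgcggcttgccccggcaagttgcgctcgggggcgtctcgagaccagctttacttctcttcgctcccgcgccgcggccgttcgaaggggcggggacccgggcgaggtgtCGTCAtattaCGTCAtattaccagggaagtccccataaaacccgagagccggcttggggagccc
The Mcl1 match lay 55 to 51 bases before the start. Pmaip1 had a pair of matches, 64 to 60 and 54 to 50 bases before the start. The full element TGACGTCA was found in 0 of the 7 members and 1.59% of all promoters, the AP-1 site TGANTCA in 0 and 6.34%, the E-box CACGTG in 0 and 5.59%, and the p53 half-site in 0 and 6.64%. The GC box GGGCGG was found in 5 members (Bak1, Bcl2l11, Bid, Mcl1 and Pmaip1) and 30.5% of all promoters. CCAAT was found in Bcl2l1 and Bcl2l11 and in 34.0% of promoters, and TATAAA in Bcl2 and in 12.9%. TGACG is contained in TGACGTCA, so the first pair of searches overlaps. A match describes letters in this window and does not show binding.

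All levels below are in CPM with TMM scaling (trimmed mean of M values). They are compared only within a gene, since no gene lengths were used. Libraries are given in the order of replicate numbers 1, 2 and 3. Bcl2, the founding pro-survival member, stood at 14.8, 17.4 and 17.7 CPM in Control. It stood at 6.72, 49.2 and 29.3 in Glutamate, which held both the lowest and the highest of the 18 values. The group means were 16.7 ± 1.58 and 28.4 ± 21.3 (SD, n = 3), so the Glutamate libraries spread over the whole range of the series. In Memantine the values were 9.77, 35.7 and 18.5 CPM. Glutamate_vesicles had 10.3, 31.3 and 15.6, Glutamate_secret 10.7, 40.3 and 11.9, and Glutamate_BPC 12.1, 20.9 and 16.9. In each of the 5 groups other than Control, the library numbered 2 was the highest and the library numbered 1 the lowest.

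Mcl1 encodes a short-lived pro-survival protein. It measured 18.3, 36.8 and 45.6 CPM in Control and 32.4, 104.9 and 38.5 in Glutamate. Memantine libraries had 21.3, 68.9 and 35.0. The 3 groups with progenitor material had 17.2, 82.2 and 38.7 (Glutamate_vesicles), 28.7, 72.9 and 25.9 (Glutamate_secret), and 29.4, 53.7 and 27.3 (Glutamate_BPC). Glutamate 2 was the highest of all 18 libraries, and the ranges of Control and Glutamate overlapped.

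Bcl2l1, the source of BCL-XL, varied least among the pro-survival members, with 3.66-fold between its lowest and highest library against 7.33-fold for Bcl2 and 6.08-fold for Mcl1. Control libraries had 31.4, 65.3 and 56.3 CPM, and Glutamate libraries 55.7, 58.8 and 56.6, a narrow range. Memantine had 30.3, 60.6 and 46.2, and Glutamate_vesicles 42.8, 74.1 and 66.8. Glutamate_secret had 41.6, 52.9 and 20.3, and Glutamate_BPC 58.1, 62.9 and 34.2. All 3 Glutamate_secret libraries lay below all 3 Glutamate libraries, the only non-overlapping pair of ranges among the 3 pro-survival genes in the 9 comparisons.

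**Figure D1:**
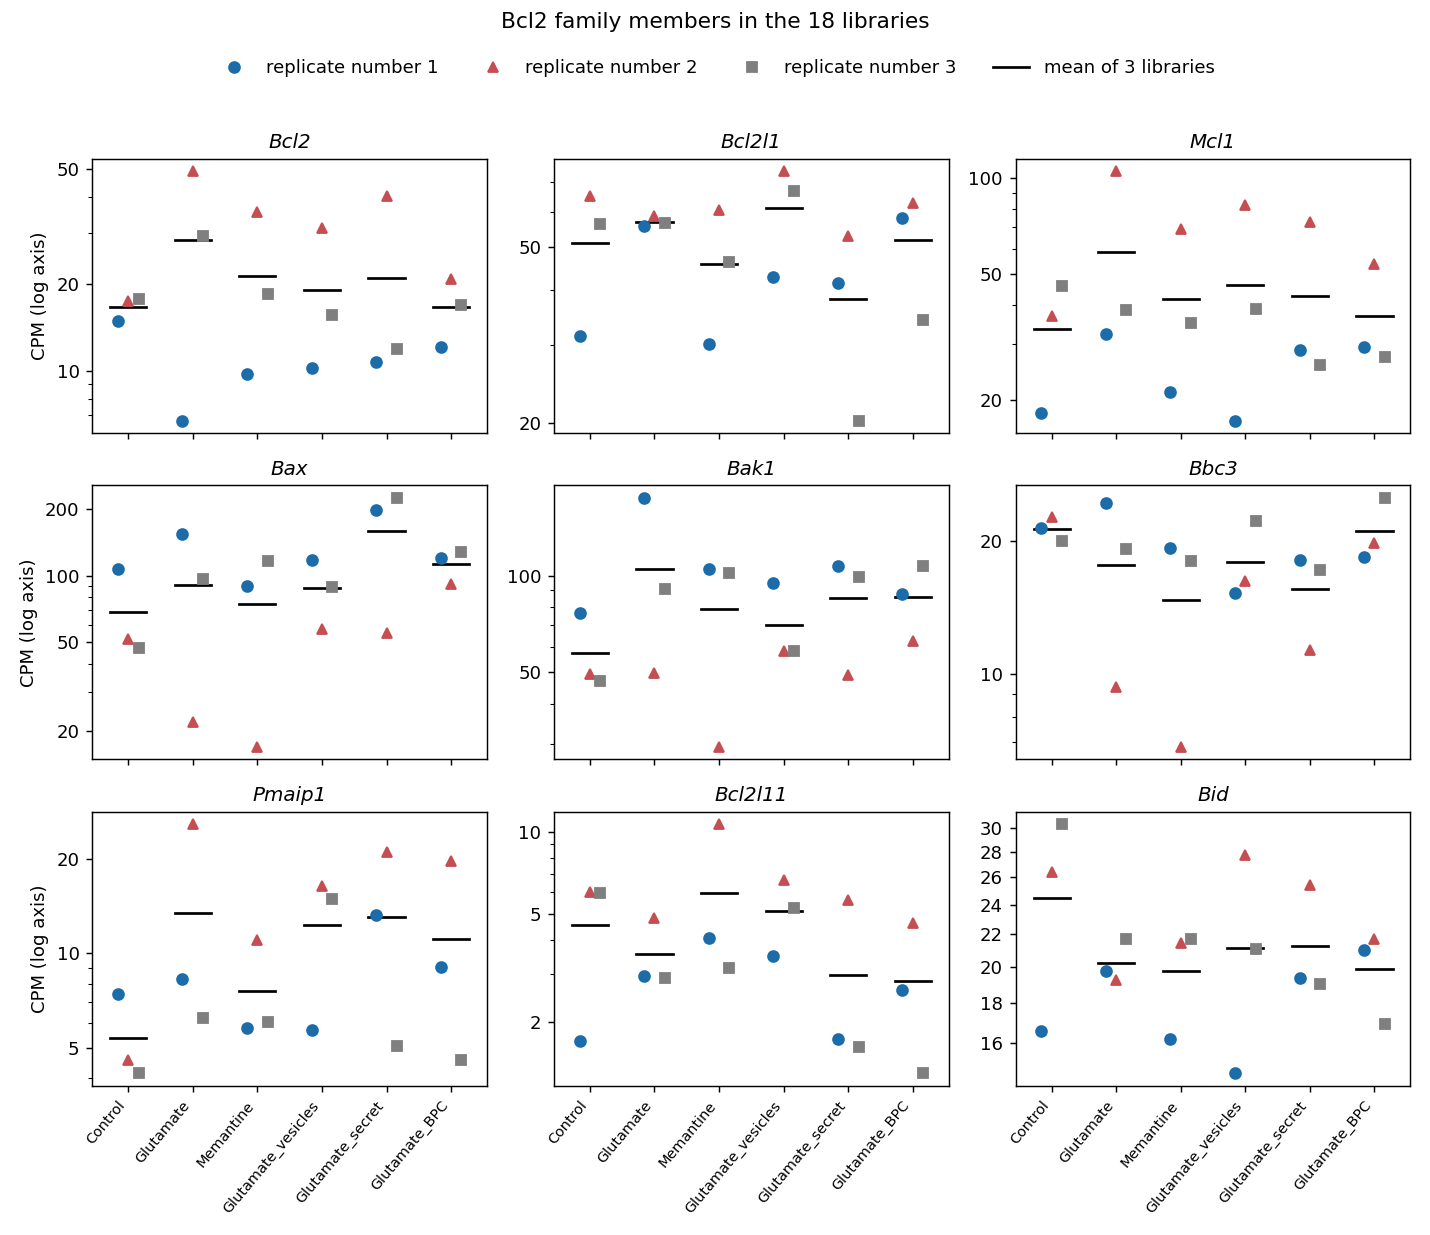
Level of each of the 9 members in CPM (log axis) in the 18 libraries, by group, with the symbol showing the replicate number and the bar the mean of 3 libraries. Number 2 is highest for Bcl2 and Mcl1 in the 5 groups other than Control and lowest for Bax in the same 5 groups, and the Control and Glutamate ranges overlap for each of the 9 members.

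Bax, a pore-forming effector that moves from the cytosol to mitochondria, had the widest range of the family, 13.3-fold from 16.9 CPM in Memantine 2 to 224 CPM in Glutamate_secret 3. Control had 107.6, 51.7 and 47.0, and Glutamate 154, 21.8 and 96.9. Memantine had 90.1, 16.9 and 116. Glutamate_vesicles had 118, 57.7 and 88.5, Glutamate_secret 198, 55.0 and 224, and Glutamate_BPC 120.0, 91.7 and 128. Glutamate_secret 1 and 3 were above every other library, and Glutamate_secret 2 was within the Control range. The counts of Bax were not whole in any of the 18 libraries, at a tolerance of 1e-06. The same held for Bcl2l1 in 10 libraries and for none of the other members.

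Bak1, the effector that resides in the outer membrane, had 76.5, 49.3 and 47.2 CPM in Control and 174, 49.97 and 90.7 in Glutamate. Memantine had 104, 29.3 and 102, Glutamate_vesicles 94.5, 58.2 and 58.5, Glutamate_secret 107, 49.2 and 99.2, and Glutamate_BPC 87.7, 62.7 and 107. The Glutamate mean of 105 ± 63.5 compared with 57.7 ± 16.4 in Control (SD, n = 3), with overlapping ranges.

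Among the BH3-only members, Pmaip1 (NOXA, an antagonist of MCL1) had the largest difference between Glutamate and Control. Its Control libraries had 7.42, 4.56 and 4.15 CPM and its Glutamate libraries 8.27, 25.8 and 6.23. The Glutamate mean of 13.4 ± 10.8 (SD, n = 3) rested mostly on Glutamate 2, and Glutamate 3 lay below Control 1. Memantine had 5.80, 11.001 and 6.04, and Glutamate_vesicles 5.68, 16.4 and 14.9. Glutamate_secret had 13.2, 21.0 and 5.07, and Glutamate_BPC 9.06, 19.8 and 4.56. The range of every group that received a treatment overlapped that of Control.

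Bbc3 (PUMA, a p53 target that binds all pro-survival members) was even across Control, at 21.4, 22.6 and 20.0 CPM. Glutamate libraries had 24.4, 9.33 and 19.2, and Memantine libraries 19.3, 6.83 and 18.04. Glutamate_secret had 18.1, 11.3 and 17.2. All 3 Memantine and all 3 Glutamate_secret libraries were therefore below all 3 Control libraries. Glutamate_vesicles had 15.3, 16.2 and 22.2 and Glutamate_BPC 18.4, 19.8 and 25.1, both overlapping Control.

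Bcl2l11 (BIM, a BH3-only activator) was measured with the fewest counts, down to 6 in Control 1, for which the exact 95% Poisson interval is 2.20 to 13.1 and covers counting error only. Its levels were 1.71, 5.99 and 5.98 CPM in Control, 2.97, 4.83 and 2.92 in Glutamate, and 4.08, 10.7 and 3.16 in Memantine. Glutamate_vesicles had 3.49, 6.66 and 5.25, Glutamate_secret 1.73, 5.62 and 1.63, and Glutamate_BPC 2.63, 4.61 and 1.30. Bid, which is activated by cleavage, was the steadiest member, with 2.07-fold between its lowest library (Glutamate_vesicles 1, 14.7 CPM) and its highest (Control 3, 30.4 CPM). Its group means ran from 19.8 ± 3.10 in Memantine to 24.4 ± 7.11 in Control (SD, n = 3).

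The question of whether glutamate altered the transcript levels of the family was addressed with the quasi-likelihood test of edgeR, fitted on all tested genes with Benjamini-Hochberg adjustment. At an adjusted p below 0.05, 0 of the 9 members were called in Glutamate versus Control, against a background of 0% of all genes. At the looser criterion of an unadjusted p below 0.05 with a fold above 1.5, 0 members were called, against 8.07% of all genes. In this comparison 0 members had ranges without overlap, against 12.2% of all genes. Pmaip1 had the largest estimate, a log2 fold change of 1.35 ± 0.68 (SE), with a 95% interval from -0.10 to 2.79 and an adjusted p of 0.677 by edgeR. Bak1 was at 0.87 ± 0.51, Mcl1 at 0.80 ± 0.64, Bcl2 at 0.77 ± 0.67, Bax at 0.41 ± 0.71 and Bcl2l1 at 0.16 ± 0.40. The remaining values were -0.38 ± 0.66 for Bcl2l11, -0.28 ± 0.41 for Bbc3 and -0.28 ± 0.31 for Bid. The median log2 fold change was 0.41 over the 9 members, 0.77 over the pro-survival members and 0.06 over the pro-death members, against 0.08 over all genes. For 5 members (Bcl2, Bcl2l1, Bax, Bbc3 and Bcl2l11) the interval reached past 1.5-fold in both directions. It reached past 1.5-fold upwards for Mcl1, Bak1 and Pmaip1 and downwards for Bid. At this spread, a change of that size was therefore not excluded for any member.

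Single libraries decided the closest values. Without Glutamate 1 the Pmaip1 difference was 1.60 and without Glutamate 3 it was 1.69, and each time it passed the looser criterion, beside 6.71% and 4.97% of all genes. Without Glutamate 2, Pmaip1 was at 0.45, Mcl1 at 0.076 and Bcl2 at 0.11. Bak1 then stood at 1.21 and passed, beside 8.1% of all genes, and without Glutamate 1 it was at 0.29. Bcl2 was at 1.24 without Glutamate 1. With the share of ribosomal RNA as a covariate, Mcl1 passed it at 0.86 (adjusted p = 0.228 by edgeR), beside 15.4% of all genes.

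Whether memantine or the progenitor material moved the family away from its level under glutamate was compared next. In none of these 4 comparisons was a member called at an adjusted p below 0.05 by edgeR, with 0% of all genes called in each. The looser criterion also took 0 of 9 members in each, against 5.06% of all genes for Memantine, 1.08% for Glutamate_vesicles, 0.674% for Glutamate_secret and 1.06% for Glutamate_BPC. Under Memantine, 8 of 9 members had estimates below Glutamate, the lowest being Pmaip1 at -0.82 ± 0.67, and Bcl2l11 was the exception at 0.74 ± 0.66. Their ranges overlapped in every case, against 2.86% of all genes without overlap. Under Glutamate_vesicles the estimates lay between -0.58 (Bcl2 and Bak1) and 0.52 (Bcl2l11), and 0 members had separate ranges, against 6.27% of genes. Under Glutamate_secret, Bcl2l1 was at -0.57 ± 0.40 and Bax at 0.81 ± 0.71. Bcl2l1 was the 1 of 9 members with separate ranges, against 3.41% of genes, and its adjusted p by edgeR was 1. Under Glutamate_BPC, Bcl2 was at -0.77 ± 0.67 and Mcl1 at -0.67 ± 0.64, and 0 members had separate ranges, against 7.13% of genes. The medians over the members were -0.32, -0.05, -0.22 and -0.27 in the order just given, against -0.02, -0.01, -0.01 and -0.05 over all genes. These 4 comparisons share the Glutamate libraries. In Memantine, Glutamate_secret and Glutamate_BPC, same-numbered libraries paired the samples. With the number as a block, 0 members were called there by either criterion, beside 7.96%, 3.22% and 3.34% of genes by the looser criterion. In Memantine, Pmaip1 was then at -0.65 ± 0.49 and Bcl2l11 at 0.61 ± 0.46. In Glutamate_secret, Bcl2l1 was at -0.62 ± 0.34 and Bax at 0.90 ± 0.47. In Glutamate_BPC, Bcl2 was at -0.50 ± 0.40 and Mcl1 at -0.52 ± 0.34.

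**Figure D2:**
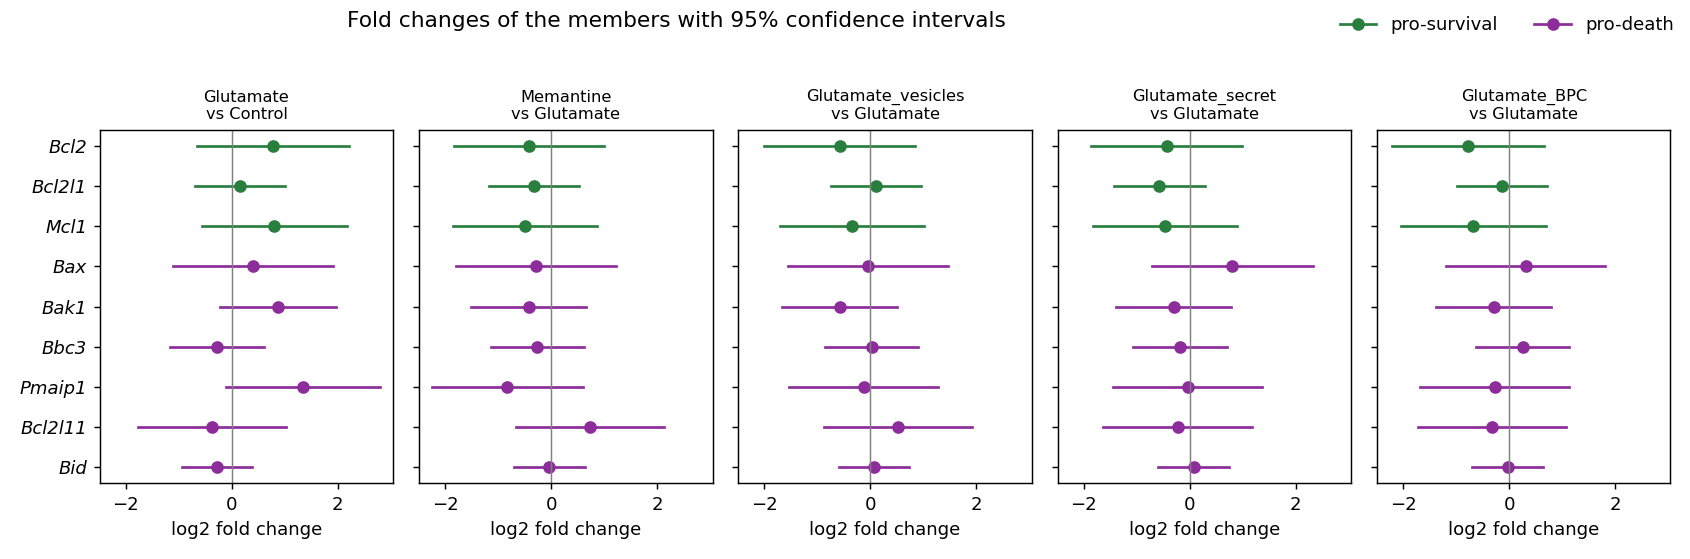
Log2 fold change (points) with 95% confidence interval (lines) of the 9 members in Glutamate versus Control and in the 4 treated groups versus Glutamate, pro-survival members in green and pro-death members in purple. Every interval includes 0, and the largest estimate is that of Pmaip1 in Glutamate versus Control, 1.35.

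With the ribosomal RNA share as a covariate, more members passed the looser criterion, and none reached an adjusted p below 0.05 by edgeR. Relative to Glutamate these were Bcl2l1 (-0.70) and Mcl1 (-1.04) in Memantine, with 14.5% of all genes. Mcl1 (-0.94) passed in Glutamate_vesicles, with 3.94% of genes, and Bcl2l1 (-0.81) and Bax (1.03) in Glutamate_secret, with 12.7%. Against Control, Bax passed at 1.18 in Glutamate_secret, with 25% of genes.

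Against Control, the same groups again gave 0 of 9 members at an adjusted p below 0.05 by edgeR, with a background of 0% for Memantine, 0.0139% for Glutamate_vesicles, 0% for Glutamate_secret and 0% for Glutamate_BPC. The looser criterion took 0 members each time, against 1.12%, 11.6%, 11.7% and 11.3% of all genes. Pmaip1 had the highest estimate of the family in each of the 3 groups that received progenitor material, at 1.22 ± 0.68 in Glutamate_vesicles, 1.31 ± 0.68 in Glutamate_secret and 1.07 ± 0.68 in Glutamate_BPC. It was at 0.52 ± 0.67 in Memantine. These values and that of Glutamate share the 3 Control libraries. Bax was at 1.21 ± 0.72 in Glutamate_secret, and 1.62 and past the looser criterion without Glutamate_secret 2, beside 17.9% of all genes. Bbc3 was at -0.54 ± 0.41 in Memantine and -0.46 ± 0.41 in Glutamate_secret, the only non-overlapping results against Control. The numbers of members without overlap were thus 1, 0, 1 and 0 in the 4 groups, against 2.35%, 19.5%, 15.9% and 24.9% of all genes.

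With the replicate number as a block, Pmaip1 passed the looser criterion in Glutamate_vesicles versus Control, at 1.21 (adjusted p = 0.194 by edgeR), where the numbers paired the samples, beside 19.6% of all genes. In the same fit it also passed at 1.12 in Glutamate_secret versus Control (adjusted p = 0.21 by edgeR), beside 22.1% of genes. The numbers did not pair the samples in that comparison. Pmaip1 also passed without Glutamate_vesicles 1 (1.57, beside 9.59% of all genes) and without Glutamate_secret 3 (1.70, beside 7.22%). A test of any difference among the 6 groups called 0 members at an adjusted p below 0.05 by edgeR and 0 at an unadjusted p below 0.05, against 0.00695% and 7.75% of all genes.

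The balance of the family was described as the mean log2 CPM of the 3 pro-survival members minus that of the 6 pro-death members. It depends on the transcripts counted and is read only between libraries. It was 0.67 ± 0.46 in Control, 0.92 ± 1.08 in Glutamate and 0.76 ± 1.03 in Memantine (SD, n = 3). The cultures given progenitor material averaged 0.61 ± 0.64 (Glutamate_vesicles), 0.39 ± 0.81 (Glutamate_secret) and 0.51 ± 0.20 (Glutamate_BPC). No group mean lay further than 0.52 from that of Glutamate, less than the SD within Glutamate. The lowest balance of the series, -0.19, and the highest, 1.97, were those of Glutamate 1 and Glutamate 2. Glutamate minus Control was -0.34 for replicate number 1, 1.08 for number 2 and -0.01 for number 3, so the direction was not shared.

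**Figure D3:**
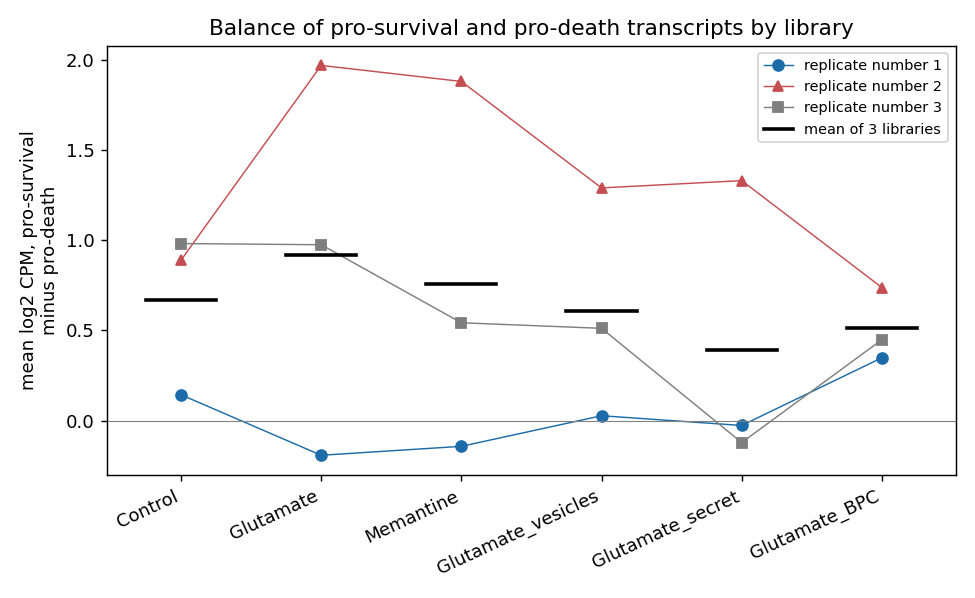
Balance of the family in each library, as mean log2 CPM of the 3 pro-survival members minus the 6 pro-death members, with lines joining libraries of 1 replicate number and black bars for group means. Number 1 lies between -0.19 and 0.35 and number 2 between 0.74 and 1.97, without overlap, while the group means lie between 0.39 and 0.92.

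The clearest separation in the family was between replicate numbers. The balance averaged 0.03 ± 0.20 over the 6 libraries numbered 1, 1.35 ± 0.50 over those numbered 2 and 0.56 ± 0.41 over those numbered 3. A test of the replicate number, adjusted for group and added after the data had been seen, called 6 of 9 members at an adjusted p below 0.05 by edgeR (Bcl2, Mcl1, Bax, Bak1, Pmaip1 and Bcl2l11). The same test called 60.4% of all genes, so the share in the family was near the background. In number 2 relative to number 1, Bcl2 was higher by a log2 fold change of 1.54 ± 0.29 (adjusted p = 0.000559 by edgeR) and Mcl1 by 1.48 ± 0.25 (adjusted p = 0.000342 by edgeR), each in 6 of 6 groups. Bcl2l11 was higher by 1.17 ± 0.33 in 6 of 6 groups and Pmaip1 by 0.88 ± 0.35 in 5 of 6. The effectors were lower, Bax at -1.50 ± 0.34 (adjusted p = 0.00165 by edgeR) and Bak1 at -1.07 ± 0.24 (adjusted p = 0.0016 by edgeR), each in 6 of 6 groups. Bcl2l1 (0.53 ± 0.24), Bid (0.39 ± 0.19) and Bbc3 (-0.53 ± 0.25) did not pass the test. The median of all genes was 0.12 under this scaling and 1.06 with library totals alone. With totals alone Bax was at -0.54 and Bak1 at -0.11, both no longer called, and Bbc3 was at 0.41, while Bcl2, Mcl1, Pmaip1 and Bcl2l11 stayed higher and called. Bcl2l1 (1.44) and Bid (1.31) gained a call there, so 6 members were again called, not the same ones.

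Between numbers 2 and 3 the same 6 members were called, where 19.8% of all genes were called higher and 22.1% lower. Between numbers 3 and 1, 0 of 9 were called, beside 1.14% of genes higher and 0.375% lower. The pro-death members went both ways, the effectors Bax and Bak1 being lower in number 2 and the BH3-only genes Pmaip1 and Bcl2l11 higher. Other measures were read by number as well. The TMM factors were 0.417 to 0.946 in number 1 and 1.25 to 1.58 in number 2, without overlap. For the marker sums that follow, the ranges overlapped between the numbers. The neuronal marker sum was 906 to 3336 CPM in number 1, 502 to 2816 in number 2 and 590 to 2107 in number 3, the astrocytic sum 2954 to 7518, 3402 to 7582 and 3478 to 13235, and the microglial sum 29.4 to 117, 38.4 to 291 and 104 to 627. With the ribosomal RNA share as a covariate, 0 of 9 members and 0.472% of all genes were called. Bcl2 was then at 1.48, Mcl1 at 0.90, Pmaip1 at 0.56, Bcl2l11 at 0.19, Bax at -0.87 and Bak1 at -0.75. The share moves with the number, and the 2 cannot be told apart. Leaving out 1 library at a time called 5 to 7 members. Pmaip1 lost its call in 8 of 18 such fits, at 0.69 to 0.92 without Glutamate 1 or 2, Memantine 1 or 2, Glutamate_vesicles 1, Glutamate_secret 2, or Glutamate_BPC 1 or 2.

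**Figure D4:**
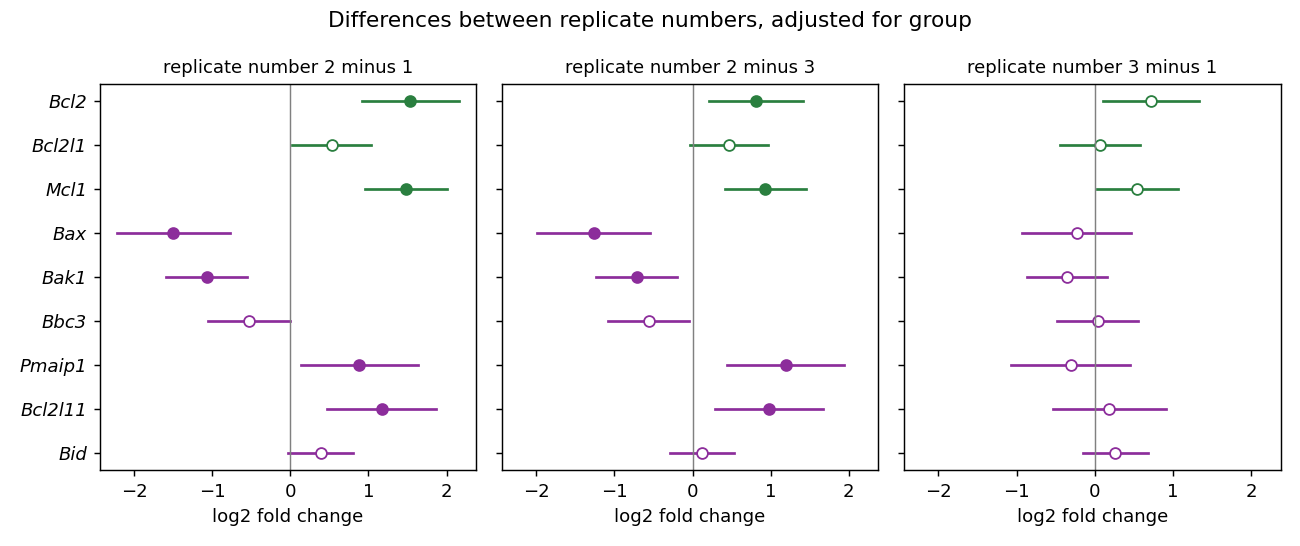
Log2 fold change with 95% confidence interval of the 9 members between replicate numbers, adjusted for group, with filled points for an adjusted p below 0.05 by edgeR, pro-survival members in green and pro-death members in purple. In number 2 minus number 1, Bcl2 (1.54) and Mcl1 (1.48) are to the right of 0 and Bax (-1.50) and Bak1 (-1.07) to the left, and no point is filled for number 3 minus number 1.

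Correlations between members over the 18 libraries followed the same division. Of 36 pairs, 24 had an adjusted permutation p below 0.05, with 13 positive and 11 negative. These permutations shuffled all 18 libraries freely, without regard to group or replicate number. Pairs of genes outside the family were not tested, and 60.4% of all genes differed by replicate number. The count is therefore not read as a trait of the family. After the mean of each replicate number was removed, 1 pair remained, Bax with Bak1. The pairs named here were chosen after their values were seen. Bax and Bak1 had r = 0.86 (adjusted permutation p = 0.00036) and Spearman rho = 0.88 (adjusted permutation p = 0.00012). Within replicate numbers 1, 2 and 3, r was 0.46, 0.82 and 0.82, and after centring it was 0.71 (adjusted permutation p = 0.0284). Without Memantine 2 and Glutamate 2, the libraries farthest from the median of Bax, r was 0.82. Bcl2 and Mcl1 had r = 0.83 (adjusted permutation p = 0.00048) and rho = 0.85 (adjusted permutation p = 0.00012), and 0.86 without Glutamate 2 and Glutamate 1. Within the numbers, r was -0.51, 0.93 and 0.52, and after centring 0.47 (adjusted permutation p = 0.26), so the direction differed between numbers. Mcl1 and Pmaip1 had r = 0.68 (adjusted permutation p = 0.00726) and rho = 0.61 (adjusted permutation p = 0.019), and r = 0.53 without Glutamate 2 and Glutamate_vesicles 2. Within the numbers r was 0.70, 0.81 and 0.23, and after centring 0.64 (adjusted permutation p = 0.148). All pairs share libraries, scaling and the ribosomal RNA share.

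**Figure D5:**
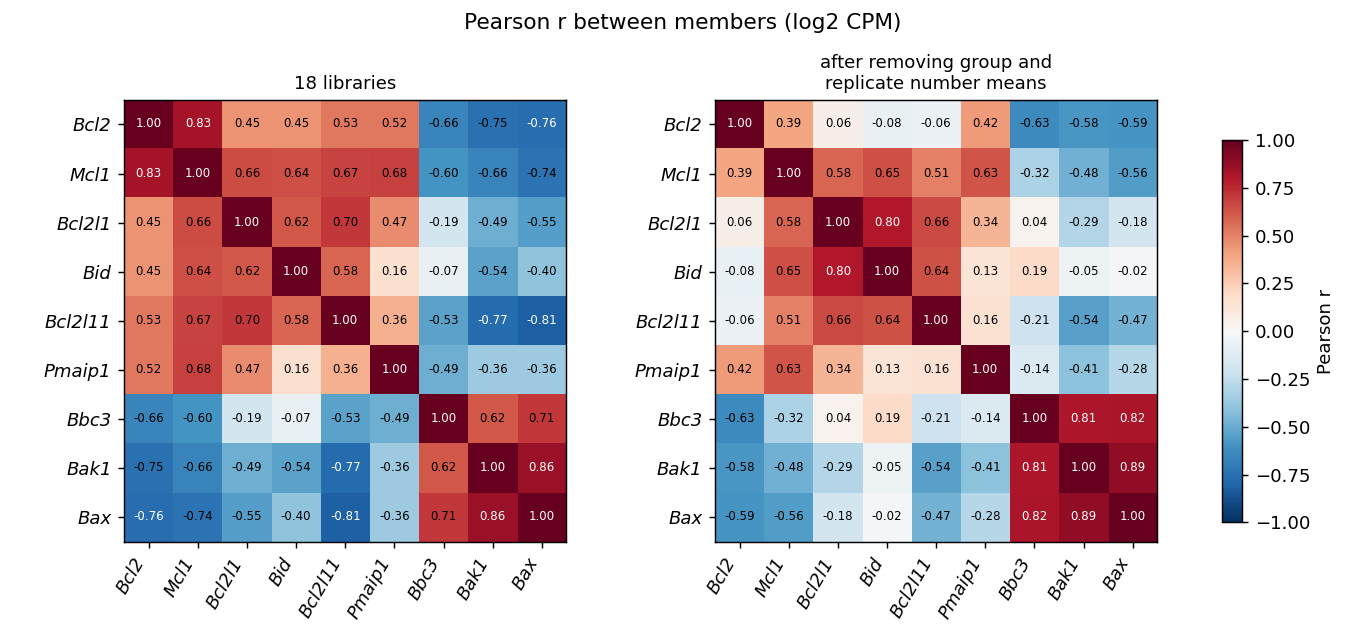
Pearson r between the log2 CPM of the 9 members over 18 libraries (left) and after group and replicate number means were removed (right), with colour from -1 (blue) to 1 (red). Bax and Bak1 stay close, from 0.86 to 0.89, whereas Bcl2 and Mcl1 go from 0.83 to 0.39. Other pairs are also high on the right: Bax and Bbc3 (0.82), Bak1 and Bbc3 (0.81), and Bcl2l1 and Bid (0.80). None of these other pairs was called after centring on replicate number.

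Genes around the family were read from fixed lists. In each list 0 genes were called at an adjusted p below 0.05 by edgeR in the 9 comparisons, so counts by the looser criterion are given as a description. Of 12 further family members, 9 were tested, while Bcl2l10, Bik and Bcl2l14 were below the filter. In Glutamate versus Control 0 of them passed in either direction. Bcl2l12, a distant relative, passed against Control in Glutamate_vesicles (1.62), Glutamate_secret (1.77) and Glutamate_BPC (1.59), from a mean of 2.54 ± 1.17 CPM in Control (SD, n = 3). The share of all genes passing in either direction there was 11.6%, 11.7% and 11.3%, and the count among the 9 tested relatives was 2, 1 and 1, so Bcl2l12 is given as a description. Bnip3l, a mitophagy receptor, passed in Glutamate_vesicles versus Control at -1.10, and its relative Bnip3 was at 0.50 there without passing.

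The p53 list held 15 tested genes, with no row for Trp53inp1, and p53 is known to drive Bax, Bbc3 and Pmaip1. In Glutamate versus Control, 12 of 15 had a positive estimate, with a median of 0.76 against 0.08 over all genes. Of the 15, 2 passed upwards and 2 downwards, beside 8.07% of all genes in either direction. Cdkn1a, the cell cycle inhibitor p21, went from 49.9 ± 16.3 to 129 ± 33.3 CPM (SD, n = 3), a log2 fold change of 1.37 (adjusted p = 0.282 by edgeR). Plk2, a kinase also induced by neuronal activity, went from 52.7 ± 21.1 to 11.1 ± 4.23 CPM, at -2.25 (adjusted p = 0.287 by edgeR). With the replicate number as a block, Plk2 was called there at -2.30 (adjusted p = 0.0401 by edgeR), beside 1.15% of all genes. It was also called against Control in Glutamate_vesicles (-1.85), Glutamate_secret (-2.55) and Glutamate_BPC (-2.28), beside 3.74%, 4.86% and 1.74% of genes. Among these comparisons, the numbers paired the samples only in Glutamate_vesicles versus Control. Plk2 was the only gene called under the block in the 6 lists of the pathway. Sesn1 was at -0.67 in Glutamate versus Control, and Aen, an apoptosis-enhancing nuclease named here after its value was seen, at 1.01. In Memantine versus Glutamate, Cdkn1a was at -0.90 and Plk2 at 2.03, both past the looser criterion, with 5.06% of all genes. The known p53 targets within the family were at 0.41 (Bax), -0.28 (Bbc3) and 1.35 (Pmaip1) in Glutamate versus Control, and none passed.

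Of 9 transcription factors and cofactors known to act on BH3-only genes, 8 had a positive estimate in Glutamate versus Control and 0 passed. The 3 with the smallest p over the 6 groups were Mybl2 (0.85), Atf4 (1.07) and Jun (0.52). Mybl2 passed in Glutamate_vesicles (0.99) and Glutamate_BPC (1.05) and Atf4 in Glutamate_secret (1.14), each against Control. Each was 1 of the 9 there, beside 11.6%, 11.3% and 11.7% of all genes, so these passes are given as a description. Downstream of mitochondrial permeabilisation, 0 of 11 genes passed in any of the 9 comparisons. In Glutamate versus Control, Diablo, which relieves caspase inhibition, was at 0.35, Birc5 at 1.05 and Apaf1, the core of the apoptosome, at -0.23. None of 7 mitochondrial partners passed in any comparison, with Mfn2 at -0.12, Dnm1l at -0.71 and Opa1 at 0.29 in Glutamate versus Control. For MCL1 turnover 5 genes were tested, with no row for Trim17. Fbxw7, a ubiquitin ligase subunit for MCL1, passed at 1.66 in Memantine versus Glutamate, beside 5.06% of all genes. Its Memantine libraries ranged from 13.9 to 151 CPM, around the Glutamate range of 21.1 to 25.6. Fbxw7 also passed at -1.38 in Glutamate_secret versus Control, beside 11.7% of genes. Usp9x, which removes ubiquitin from MCL1, passed at -1.93 in Glutamate_BPC versus Control, beside 11.3%, and Btrc passed in none. Beside these values stands the neuronal marker list. Of its 10 genes, 7 passed downwards in Glutamate versus Control, beside 8.07% of all genes. In Memantine versus Glutamate, 5 passed upwards, beside 5.06%. Under the block, 4 of 10 neuronal markers were called in Glutamate versus Control at an adjusted p below 0.05 by edgeR, beside 1.15% of all genes. In Glutamate_vesicles, Glutamate_secret and Glutamate_BPC versus Control, 3, 5 and 1 were called, beside 3.74%, 4.86% and 1.74%. Among these block comparisons, the numbers paired the samples only in Glutamate_vesicles versus Control. Glial markers had positive estimates in Glutamate versus Control for 8 of 8 astrocytic genes (median 0.65), 8 of 8 microglial genes (1.01) and 8 of 9 oligodendrocyte lineage genes (0.61). The oligodendrocyte lineage sum was 349 to 742 CPM in Control and 922 to 1107 in Glutamate, without overlap. The part of these cell types in the values above was not tested.

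The genes most alike in pattern were sought for the pro-survival and the pro-death member with the smallest p over the groups. The search covered the 11093 named genes whose log2 CPM averaged 1 or more. Rows named only by a transcript or provisional locus identifier were left out. Over the 18 libraries, Bcl2l1 was closest to Abhd10 (r = 0.90), Tigar (r = 0.89) and Paip2b (r = 0.88). After centring within replicate numbers these were 0.89, 0.90 and 0.87. Pmaip1 was closest to Eif1a (r = 0.87), Etf1 (r = 0.86) and Arl14ep (r = 0.85), with 0.87, 0.83 and 0.81 after centring. These genes were picked for their likeness, so their r values are a description.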

How the data were processed

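Expected counts per gene, estimated read counts that need not be whole, were deposited for 18 libraries. After trimming with Trimmomatic and then Cutadapt, the authors ran Salmon (version not given in the sources used here) against Ensembl rat transcripts of rn6 with a genome decoy, and summed transcripts with tximport. The submitters' processing notes also name STAR. Labels and methods name different platforms. Strand was not stated for the counting, so counts of overlapping genes can be shared. In GRCr8, a build other than that of the files, gene models overlap Bcl2 (2), Bcl2l1 (1), Bak1 (1) and Bcl2l11 (1, Acoxl).

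Samples were grouped by the treatment label. The members and gene lists were chosen with earlier results of these data known. Counts were rounded (the planned test was one for whole counts), filtered with filterByExpr (minimum count 10, total 15) and scaled by TMM in edgeR 4.0.16 (R 4.3.3). A model with 1 mean per group over all 18 libraries was tested with the two-sided quasi-likelihood test and Benjamini-Hochberg adjustment. Log2 CPM used a prior count of 2. The depth of 8409574 to 17206354 counts gave a lowest member count of 6, for Bcl2l11. Alternatives were the likelihood-ratio test of edgeR, which the study used, DESeq2 1.42.0, other scalings, no filter, removal of 78 ribosomal RNA rows, the ribosomal RNA share as a covariate, a replicate block, 2 groups alone, and leaving out each library. Deviations of same-numbered libraries correlated above 0.1 in all 3 pairs for Memantine, Glutamate_secret and Glutamate_BPC versus Glutamate and Glutamate_vesicles versus Control, and not in the other 5 comparisons. Correlations used 100000 permutations in Python, two-sided. The calculations were tested on simulated data. Named were all members and, per list, genes called at an adjusted p below 0.05 plus the 3 with the smallest p over the 6 groups. For likeness, the 3 highest r with the chosen members were named. The motifs, the replicate-number test and the named pairs were chosen after seeing the data.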

Additional observations from a re-analysis of the deposited data

How the results depend on the processing

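The 9 members gave 0 calls at an adjusted p below 0.05 in the 9 group comparisons by the quasi-likelihood and likelihood-ratio tests of edgeR and by DESeq2. In Glutamate versus Control 0 members also passed an unadjusted p below 0.05 with a fold above 1.5, with 1167 of all genes at an unadjusted p below 0.05, and 0 of all genes called by the quasi-likelihood test against 45 by the likelihood-ratio test and 232 by DESeq2. Against Control, Glutamate_vesicles, Glutamate_secret and Glutamate_BPC had 160, 223 and 61 genes called by the likelihood-ratio test and 495, 449 and 256 by DESeq2, against 2, 0 and 0. The count of members past the looser criterion, 0 in every comparison, became 1 with DESeq2 for Glutamate versus Control and 1 with only the libraries of the 2 groups for Glutamate_vesicles versus Control. The ribosomal RNA share as a covariate made it 1 for Glutamate versus Control, 2 for Memantine versus Glutamate, 1 for Glutamate_vesicles versus Glutamate, 2 for Glutamate_secret versus Glutamate and 1 for Glutamate_secret versus Control. It took the count by replicate number from 6 to 0. The replicate block made the count 1 for Glutamate_vesicles versus Control and 1 for Glutamate_secret versus Control and changed no other member's call. Where same numbers did not pair the samples, it moved the genes called from 0 to 166 in Glutamate versus Control, 0 to 700 in Glutamate_secret versus Control and 0 to 251 in Glutamate_BPC versus Control, and where they did, from 2 to 538 in Glutamate_vesicles versus Control. Leaving out 1 library gave 0 to 1 members in Glutamate versus Control, 0 to 1 in Glutamate_vesicles versus Control and 0 to 1 in Glutamate_secret versus Control.

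The direction in Glutamate versus Control turned for Bcl2l1 with library totals alone (-0.023). Without 1 library it ranged from -0.092 to 0.38 for Bcl2l1, from -0.20 to 0.88 for Bax and from -0.58 to 0.033 for Bbc3. Between replicate numbers 2 and 1, Bbc3 turned with library totals alone (0.41) and Bcl2l1 with the ribosomal RNA covariate (-0.18). The balance between these numbers, 1.32, was 2.53 with the effectors alone and 0.72 with the BH3-only genes alone as pro-death members. The causes were not tested. Of 506 values of single members under an alternative, 473 kept direction and side of the threshold, 16 lost and 11 gained a call, and 6 turned. The SD of log2 CPM within groups was 0.31 for Bid to 1.04 for Bax, and 0.80 for Bcl2l11, which had the fewest counts.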
